A study of Mus musculus with 24 samples.

Results

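The 2′,5′-oligoadenylate synthetase (OAS) family of the mouse was followed through RNA sequencing of liver endothelial cells in which P16Ink4a was silenced or overexpressed. The members were the genes listed under the symbols Oas1a, Oas1b, Oas1g, Oas2, Oas3, Oasl1 and Oasl2 and typed as protein coding, 7 of the 56748 genes of the table.

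The cells came from livers of C57BL/6 mice, stated in the methods to be females of 3 months. Liver endothelial cells were enriched on magnetic beads for Cd31 (Cd31+) and liver sinusoidal endothelial cells for Cd146 (Cd146+), and both were transduced with lentivirus and sequenced 1 week later. The methods name puromycin selection as the measure of how efficient the infection was. Each population held 4 groups of 3 libraries, 24 libraries in all. In the P16 shRNA group the vector pLKO.1 carried a hairpin against P16Ink4a, and in its control, nc shRNA, the same vector carried a non-coding hairpin. In the P16 group the vector pLenti-C-mGFP-P2A-Puro carried P16Ink4a fused to GFP, and in its control, empty vector, the same vector had no insert. Every group, controls included, had thus received a lentiviral vector. Whether a library came from 1 animal or a pool was not given in the sources used here, so p-values measure the spread between these libraries, which may be technical.

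OAS enzymes bind double-stranded RNA in the cytoplasm and then link ATP into short 2′,5′-oligoadenylates (2-5A). 2-5A is a second messenger that sets off the cleavage of viral and host RNA. OAS genes are textbook interferon-stimulated genes: type I or III interferon activates a complex that contains Stat2 and Irf9 and binds an interferon-stimulated response element (ISRE) in their promoters. The mouse carries a cluster of Oas1 copies beside Oas2 and Oas3, and a separate pair of OAS-like genes, Oasl1 and Oasl2, whose proteins end in ubiquitin-like domains.

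All 7 genes lie on chromosome 5. In GRCm38 (GENCODE annotation, matched by gene identifier), Oasl2 spans chr5:114896936-114912234 and Oasl1 chr5:114923240-114937915, both on the plus strand. The second cluster holds Oas2 at chr5:120730333-120749853 and Oas3 at chr5:120753098-120777661 on the minus strand, and Oas1b at chr5:120812635-120824163 on the plus strand. It ends with Oas1g at chr5:120876142-120887613 and Oas1a at chr5:120896256-120907521, both on the minus strand. Oas1b is typed as a polymorphic pseudogene in that annotation and as protein coding in the deposited table. C57BL/6 mice are known to carry a premature stop codon in Oas1b, so a transcript of this gene does not stand for the full-length protein.

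The promoters of Oas3, Oas1g and Oas1a are shown because they hold the element through which interferon is known to act on this family. Promoter windows from RefSeq (GRCm38.p6, 250 bases before to 50 bases after the start of the gene) were at hand for 5 of the 7 members, all but Oas2 and Oas1b. Capitals mark matches to the ISRE core GAAANNGAAA, searched on both strands, and each sequence runs 5′ to 3′ along the gene's strand.
Oas3, chr5:120777700-120777759, minus strand: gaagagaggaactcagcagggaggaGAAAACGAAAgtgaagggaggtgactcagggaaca
Oas1g, chr5:120887591-120887656, minus strand: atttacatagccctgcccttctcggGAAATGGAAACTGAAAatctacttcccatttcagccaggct
Oas1a, chr5:120907505-120907570, minus strand: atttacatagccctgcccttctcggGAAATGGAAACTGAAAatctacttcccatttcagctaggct
The match in Oas3 ran from base -75 to -66 relative to the start. Oas1g had overlapping matches from -18 to -9 and from -12 to -3, and Oas1a from -20 to -11 and from -14 to -5. The windows printed for Oas1a and Oas1g differed at 1 of 66 bases. In the windows of Oasl1 and Oasl2 these letters were not found. The core was present in 3.443% of the 32851 promoters of the table, and in 3 of the 5 members' promoters. The matches in Oas1a and Oas1g lie in nearly the same sequence, so they are not separate instances. The other motif searched, the STAT site TTCNNNGAA, was present in 8.298% of the promoters and in 1 of the 5 members' promoters, that of Oas1a.

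The libraries held 15409767 to 26470392 reads assigned to genes. Levels are given in CPM, reads per 1000000 reads of a library after scaling by edgeR's TMM factor. Cdkn2a, the gene of P16Ink4a, was lower in every P16 shRNA library (5.12 to 9.22 CPM in Cd31+ and 7.79 to 25.7 CPM in Cd146+ cells) than in any nc shRNA library (36.2 to 75.9 and 94.5 to 196 CPM), and higher in every P16 library than in any with empty vector. Transcripts from the sex chromosomes divided the libraries. In 16 of them Ddx3y, on the Y chromosome, had 986 counts or more and Xist 4 or fewer, and in the other 8 Xist had 6698 or more and Ddx3y 0, although the methods state female mice. All 6 Cd31+ libraries with P16 shRNA or nc shRNA were of the first kind. In Cd146+ cells, replicates 5 and 6 with P16 shRNA and replicate 5 with nc shRNA were of the second.

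Endothelial markers were present in every library (Pecam1 4.05 to 281 CPM, Cdh5 3.70 to 366 CPM), whereas markers of liver sinusoidal endothelium were uneven, with Stab1 at 3.63 to 430.5 CPM, Lyve1 at 0.131 to 7.53 CPM, Oit3 at 0.642 to 2.72 CPM, Stab2 at most 0.962 CPM and Clec4g at most 0.225 CPM. The summed endothelial list (14 genes) lay at 501 to 1094 CPM with nc shRNA and 295 to 672 CPM with P16 shRNA in Cd31+ cells, and at 349 to 1998 and 315 to 1865 CPM in Cd146+ cells. The summed mesenchymal list, led by Col1a1, lay at 20230 to 37830 against 24140 to 51140 CPM in Cd31+ and at 11130 to 27510 against 25570 to 31920 CPM in Cd146+ cells. The OAS family is highly inducible in immune cells, so their markers are given beside it. Summed macrophage markers lay at 40.1 to 146 CPM with nc shRNA and 30.6 to 114 CPM with P16 shRNA in Cd31+ cells, and at 25.2 to 317 and 16.9 to 276 CPM in Cd146+ cells. The summed plasmacytoid dendritic list (6 genes), led by Tcf4, lay at 55.3 to 99.2 CPM with nc shRNA and 43.1 to 96.4 CPM with P16 shRNA in Cd31+ cells. In Cd146+ cells it lay at 57.9 to 151 and 62.5 to 132 CPM. Over all libraries Tcf4 had 42.1 to 149 CPM. The other genes of this list had at most 5.66 (Irf8), 1.37 (Ly6d), 0.393 (Ccr9), 0.140 (Siglech) and 0.106 CPM (Klk1). The 8 summed T, B and NK cell markers, led by Cd79a, rested on few reads, where 3 counts stand for about 0.113 to 0.195 CPM. They lay at 0.0930 to 0.204 CPM with nc shRNA and 0.4501 to 0.590 CPM with P16 shRNA in Cd31+ cells. In Cd146+ cells they lay at 0.107 to 0.125 against 0.147 to 0.248 CPM, a gap within the range that 3 counts stand for. Ncr1, which marks NK cells, had no read in any library. The part of these cell types in the results was not tested. In bulk RNA, a change in the number of cells of a type cannot be told apart from a change in RNA per cell.

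Silencing of P16Ink4a was compared with nc shRNA to ask whether the loss of this cell cycle inhibitor moves the family. In Cd31+ cells, the 7 members together made up 1.84, 2.93 and 12.02 CPM in the nc shRNA libraries and 52.6, 61.7 and 336 CPM in the P16 shRNA libraries. Every one of the 7 genes was higher in each of the 3 P16 shRNA libraries than in any of the 3 nc shRNA libraries, a separation seen in this direction for 7.42% of all genes with a count. The same held for all 7 in Cd146+ cells, where it was seen for 6.76% of genes, and where the sum lay at 1.42, 5.51 and 6.46 CPM with nc shRNA and 60.4, 77.3 and 676 CPM with P16 shRNA. Of the members, 5 in Cd31+ cells (all but Oas3 and Oasl1, which a filter on low counts removed) and 7 in Cd146+ cells entered the test. All of these were higher at an unadjusted p under 0.05 (edgeR's quasi-likelihood test, two-sided), as were 9.51% and 5.44% of all genes tested. Apart from Oas1b, and Oasl2 in Cd146+ cells, these members had fewer than 10 reads in at least 1 nc shRNA library and passed the filter through the P16 shRNA libraries, which favours finding them higher, so their counts and medians are descriptions. After Benjamini-Hochberg adjustment over all genes, 0 members passed 0.05 in either population, with a background of 0.383% in Cd31+ and 0% in Cd146+ cells. The median log2 fold change of the members tested was 5.05 in Cd31+ cells, against 0.0034 for all genes, and 6.25 in Cd146+ cells, against 0.0255.

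The libraries carry replicate numbers, and those of the same number deviated together within each population. With the number as a term in a fit over the 12 libraries of a population (replicate block), all 7 members rose in Cd31+ cells at an adjusted p under 0.05, as did 7.95% of the genes tested. In Cd146+ cells 5 of 7 rose, against 3.53%, and these were Oas1b, Oas1g, Oas2, Oasl1 and Oasl2. P16 shRNA replicate 6 has a number of its own there and adds nothing to the block, so that fit rests on P16 shRNA replicates 3 and 5. With the block over the 2 groups alone, 5 of 5 members rose in Cd31+ cells (background 8.92%) and 0 of 7 in Cd146+ cells (background 0%). DESeq2's Wald test called 5 of 5 (background 3.83%) and 4 of 7 (background 1.07%). In Cd146+ cells it gave the other members, Oas1a, Oas1g and Oasl2, no p, whereas the background counts only genes with an adjusted p. A single fit over all 24 libraries called 0 of 7 in Cd31+ cells (background 0.242%) and 5 of 7 in Cd146+ cells (background 1.31%). The limit given above for members with few nc shRNA reads holds in these fits too, so their calls are likewise descriptions. Oas3 and Oasl1, which the filter removed from the Cd31+ fit of 6 libraries, entered only the Cd31+ fits with more libraries.

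**Figure D1:**
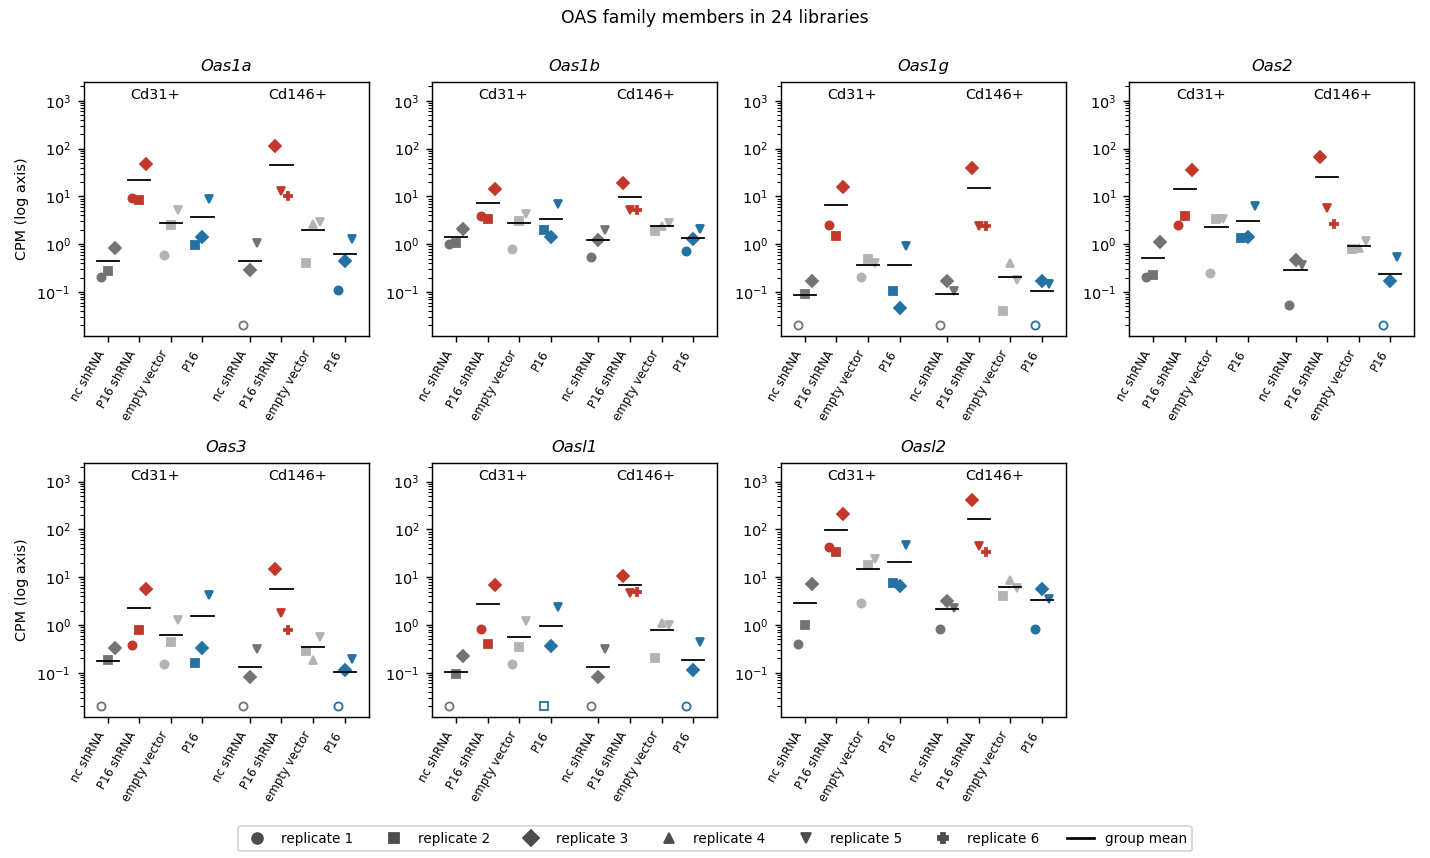
Level of each of the 7 members in every library, in CPM on a log axis, by population and construct; each point is 1 library (its shape gives the replicate number), lines are group means, and open points near the lower edge are libraries with 0 counts. The P16 shRNA points lie above the nc shRNA points for every gene in both populations, and the highest P16 shRNA point is replicate 3 each time.

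Of the Oas1 synthetases, Oas1a and Oas1g gave the largest fitted fold changes of the family and Oas1b the smallest. Oas1a, an enzyme that makes 2-5A, stood at 0.204, 0.279 and 0.842 CPM with nc shRNA and 9.33, 8.55 and 48.9 CPM with P16 shRNA in Cd31+ replicates 1, 2 and 3. These were 3, 6 and 15 reads against 174, 152 and 1053 reads. The log2 fold change was 5.64 (SE 1.03, unadjusted p = 0.00146, adjusted p = 0.0677 from edgeR), where SE is approximated as the absolute log2 fold change over the square root of the test's F. Under the block the value was 5.50 (edgeR, adjusted p = 0.00116). All 3 P16 shRNA libraries were high, and replicate 3 was the highest by a wide margin.

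In Cd146+ cells Oas1a had 0, 7 and 20 reads with nc shRNA, or 0, 0.292 and 1.07 CPM in replicates 1, 3 and 5. With P16 shRNA it reached 112, 12.7 and 10.01 CPM in replicates 3, 5 and 6. The log2 fold change was 6.62 (SE 1.51, adjusted p = 0.382 from edgeR), and 6.23 with the block (adjusted p = 0.0977 from edgeR). The groups did not overlap, but a single P16 shRNA library, replicate 3, carried most of the reads, and without it the log2 fold change of Oas1a was 4.65.

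Oas1g, a second active Oas1 enzyme, was close to absent in the controls. Its level was 0, 0.0930 and 0.168 CPM with nc shRNA and 2.57, 1.46 and 15.6 CPM with P16 shRNA in Cd31+ cells, and 0, 0.167 and 0.107 against 40.2, 2.41 and 2.44 CPM in Cd146+ cells. Its log2 fold changes were 6.07 (SE 1.33, adjusted p = 0.0895 from edgeR) and 7.20 (SE 1.66, adjusted p = 0.382 from edgeR). The block gave 5.82 and 7.06 (edgeR, adjusted p = 0.00344 and 0.00990). Since nc shRNA replicate 1 had no read for Oas1g in either population, these fitted folds depend on the prior count. In Cd31+ replicate 1 the fold was at least 12.6, against the floor of 3 counts. Where the control of the same number had reads, P16 shRNA was 15.7-fold and 92.5-fold higher in Cd31+ replicates 2 and 3, and 241-fold and 22.6-fold in Cd146+ replicates 3 and 5.

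Oas1a and Oas1g are close copies. Of the 100-base words in the Oas1a transcripts, 730 of 1786 (40.9%) also occur in those of Oas1g, while no other pair of members shares any. The libraries were described as non-directional and the treatment of reads that fit several genes was not given in the sources used here, so the split of reads between Oas1a and Oas1g is uncertain. Oas1b shares no such word with the others.

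Oas1b, the copy with the premature stop, had at least 10 reads in every nc shRNA library. It stood at 1.02, 1.07 and 2.08 CPM with nc shRNA and 3.86, 3.43 and 14.4 CPM with P16 shRNA in Cd31+ cells, and at 0.545, 1.21 and 1.98 against 19.0, 5.31 and 5.18 CPM in Cd146+ cells. Its log2 fold changes, 2.38 (SE 0.67, adjusted p = 0.129 from edgeR) and 2.97 (SE 0.72, adjusted p = 0.382 from edgeR), were the smallest of the family in both populations. In same-numbered pairs the fold was 3.79, 3.21 and 6.92 in Cd31+ cells and 15.7 and 2.69 in Cd146+ cells. Under the block they were 2.29 and 2.85 (edgeR, adjusted p = 0.0163 and 0.0420).

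Oas2 and Oas3 encode the larger synthetases, built from repeated OAS domains. Oas2 rose with the block in both populations. It had 0.204, 0.233 and 1.12 CPM with nc shRNA and 2.52, 3.94 and 35.9 CPM with P16 shRNA in Cd31+ cells, and 0.0545, 0.459 and 0.374 against 68.1, 5.77 and 2.64 CPM in Cd146+ cells. Its log2 fold changes were 4.76 (SE 1.36, unadjusted p = 0.0125) and 6.36 (SE 1.55, unadjusted p = 0.00549) from edgeR, and 4.56 and 6.06 with the block (adjusted p = 0.0203 and 0.0417). In Cd31+ cells the lowest P16 shRNA library of Oas2 was nearer to the highest control than to P16 shRNA replicate 3, which was again far above the others.

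Oas3, the longest member, which makes most of the active 2-5A in human cells, had the fewest reads for its length. In Cd31+ cells it was counted 0, 4 and 6 times with nc shRNA and 7, 14 and 124 times with P16 shRNA, so that the groups were separated by 1 read. In Cd146+ cells its levels were 0, 0.0834 and 0.320 CPM with nc shRNA and 14.5, 1.80 and 0.782 CPM with P16 shRNA. The log2 fold change of Oas3 with the block was 3.41 in Cd31+ (adjusted p = 0.0142) and 5.03 in Cd146+ cells (adjusted p = 0.0615 from edgeR). A count of 0 allows up to 3 counts, or 0.204 CPM in Cd31+ nc shRNA replicate 1, so the fold there was at least 1.84.

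Oasl2, of the OAS-like pair, supplied most of the family's reads in the P16 shRNA libraries. Its protein keeps synthetase activity in the mouse. Oasl2 was counted 6, 21 and 129 times with nc shRNA and 789, 605 and 4496 times with P16 shRNA in Cd31+ cells, which is 0.408, 0.976 and 7.24 CPM against 42.3, 34.0 and 209 CPM. Replicate 3 had the highest level in both groups, and its fold over the control of the same number, 28.8, was close to that of replicate 2, 34.9, while replicate 1 gave 104. The log2 fold change was 5.05 (SE 1.25, adjusted p = 0.111 from edgeR), or 5.15 with the block (adjusted p = 0.0263).

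In Cd146+ cells Oasl2 had 15, 77 and 43 reads with nc shRNA and 9432, 1258 and 703 reads with P16 shRNA. As CPM this was 0.818, 3.21 and 2.30 against 411, 44.5 and 34.3. The log2 fold change was 6.25 (SE 1.27, unadjusted p = 0.00214), and 5.86 with the block (adjusted p = 0.0402 from edgeR). The pair of replicate 3 gave a fold of 128 and the pair of replicate 5 gave 19.4.

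Oasl1, which has lost synthetase activity and is known to hold back translation of Irf7, was rare in the controls. It had 0, 2 and 4 reads with nc shRNA and 15, 7 and 150 with P16 shRNA in Cd31+ cells, where the block gave a log2 fold change of 4.28 (adjusted p = 0.00709 from edgeR). Against controls of the same number Oasl1 was at least 3.94-fold, 4.24-fold and 31.0-fold higher there. In Cd146+ cells Oasl1 stood at 0, 0.0834 and 0.320 CPM with nc shRNA and 10.8, 4.71 and 4.98 CPM with P16 shRNA. Its 3 treated libraries there were the most even of the family. The log2 fold change of 5.62 (SE 0.98) had the smallest unadjusted p of the 7, 0.000830, and the adjusted p was 0.369 (edgeR), or 0.0155 under the block. The antisense gene Gm13822 overlaps Oasl1 and Gm43068 overlaps Oas2, but these had at most 2 and 4 reads in any library.

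Leaving out P16 shRNA replicate 3 lowered the folds of the family without turning any. The log2 fold changes of Oas1a, Oas1b, Oas1g, Oas2 and Oasl2 were then 4.31, 1.39, 4.37, 2.62 and 3.73 in Cd31+ cells. In Cd146+ cells the median over the 7 members fell to 4.21, with Oas1b lowest at 2.07 and Oasl1 highest at 5.13. In a fit with a term for the sex-linked transcripts, Cd146+ silencing gave log2 fold changes of 2.92 for Oas1b to 7.67 for Oas1g, with adjusted p from 0.182 (Oas1g) to 0.377 (Oas3) from edgeR, and no such fit was possible in Cd31+ cells, where the 6 libraries did not differ. Both same-numbered Cd146+ pairs compare libraries of the same kind, replicate 3 with Ddx3y and replicate 5 with Xist, and every member was higher with P16 shRNA in both.

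Placed among the 16524 genes of the fit over all 24 libraries and ordered from the largest increase, Oas1g stood at rank 1, Oas1a at 3, Oasl2 at 8, Oas2 at 12, Oasl1 at 17, Oas3 at 48 and Oas1b at 156 for silencing in Cd31+ cells. In Cd146+ cells Oas1g was at rank 6, Oas1a at 10, Oas2 at 12, Oasl2 at 13, Oasl1 at 22, Oas3 at 28 and Oas1b at 94. In this fit Oas1g and Oas1a led the family in both populations and Oas1b came last. The lead changed between same-numbered pairs. In Cd146+ replicate 5 the fold of Oas1a, 11.9, was below those of Oasl2 (19.4), Oas2 (15.45) and Oasl1 (14.7). In Cd31+ replicate 1 the fold of Oasl2, 104, exceeded that of Oas1a, 45.7.

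**Figure D2:**
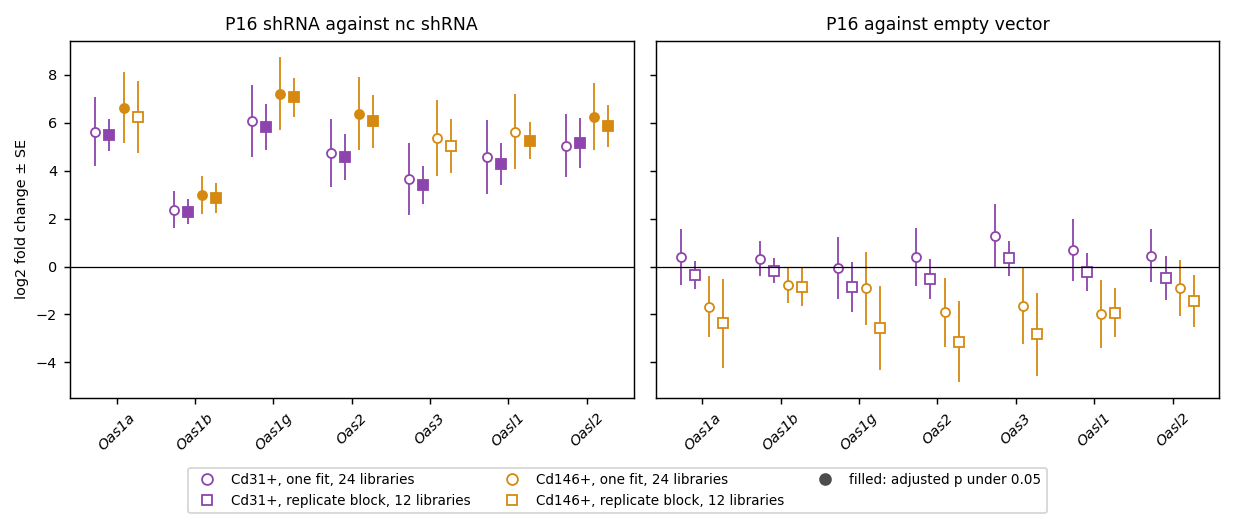
Log2 fold change of each member with P16 shRNA against nc shRNA (left) and with P16 against empty vector (right) in Cd31+ and Cd146+ cells (bars, SE), from the fit over 24 libraries (circles) and with the replicate block over 12 libraries (squares); filled symbols have an adjusted p under 0.05. On the left the 7 members lie between 2.29 and 7.21 and on the right no symbol is filled.

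The size of the silencing effect was compared between the populations as an interaction over 24 libraries. The effect was larger in Cd146+ than in Cd31+ cells by 0.60 to 1.72 on the log2 scale over the 7 members, with unadjusted p of 0.393 or more and adjusted p of 1 (edgeR). Thus 0 of 7 members differed between the populations, while 0.599% of all genes did in this direction. The difference rests on single libraries. Its median over the members, 1.13, was -0.83 without Cd146+ P16 shRNA replicate 3 and 2.81 without Cd31+ P16 shRNA replicate 3.

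Levels can be compared between genes only per length, for which the authors' FPKM (fragments scaled to transcript length and library size) was used. With P16 shRNA in Cd31+ cells Oasl2 had the highest mean, 14.6 FPKM, followed by Oas1a at 11.6, Oas1b at 3.56, Oas2 at 3.11, Oas1g at 2.74, Oasl1 at 1.02 and Oas3 at 0.320 FPKM. In Cd146+ cells Oasl2 and Oas1a again led, at 24.9 and 23.3 FPKM, and Oas1g, Oas2, Oas1b, Oasl1 and Oas3 followed at 6.24, 5.57, 4.84, 2.58 and 0.786 FPKM. With nc shRNA the order opened otherwise. There Oas1b led in both populations, at 0.685 FPKM in Cd31+ and 0.620 FPKM in Cd146+ cells, ahead of Oasl2 at 0.443 and 0.327 FPKM. Oas1a came next, at 0.230 and 0.240 FPKM. Across the 24 libraries Oasl2 was the highest member in 14, Oas1b in 8 and Oas1a in 2. Oas3 had the lowest mean in 7 of the 8 groups, the exception being Cd31+ cells with P16. The library ranges of neighbours in the order overlapped in every group, except for Oasl2 above Oasl1 and Oas2 above Oas1g in Cd146+ cells with empty vector.

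**Figure D3:**
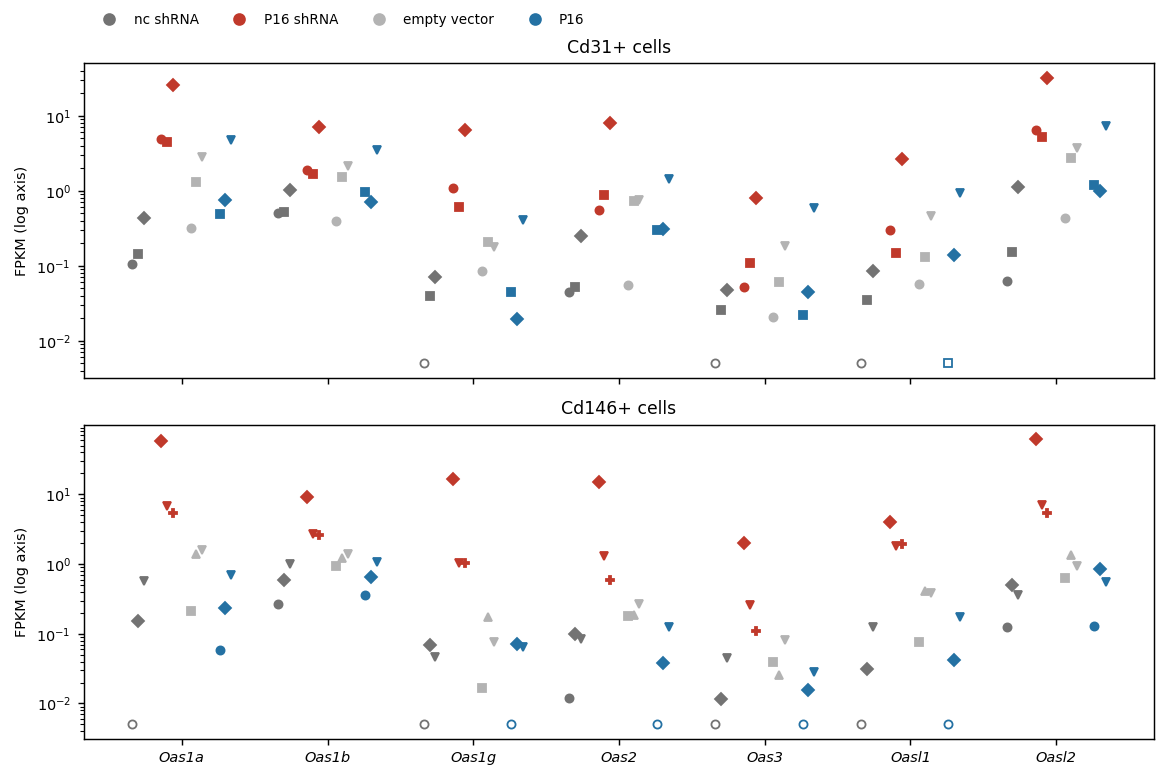
Level per length of the 7 members in each library, in FPKM on a log axis, for the 8 groups; open points at the lower edge are libraries with a value of 0. Oas1b is the highest mean with nc shRNA and Oasl2 with P16 shRNA in both populations.

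The shares of Oasl2 and Oas1a in the family's reads were more even across the P16 shRNA libraries than their levels. Oasl2 took 62.1 to 68.5% of the members' reads in Cd31+ and 56.9 to 60.8% in Cd146+ cells, and Oas1a 14.5 to 16.3% and 16.5 to 16.6%, although the sum over the members ran from 52.6 to 676 CPM in these libraries. Oas2 varied more, from 4.08 to 10.7% and from 4.37 to 10.1%. Oas1b took 4.28 to 6.52% and 2.81 to 8.58%, and Oas1g 2.78 to 4.64% and 3.12 to 5.95%. Oas3 took 0.608 to 2.34% over the 6 libraries. Oasl1 had 0.749 to 2.07% in Cd31+ and 1.60 to 8.25% in Cd146+ cells, where its share varied more than its level. With nc shRNA Oasl2 took 22.2 to 60.3% of the members' reads in Cd31+ and 35.5 to 58.3% in Cd146+ cells.

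The ratio within the OAS-like pair differed between kinds of library. In Cd146+ cells, Oasl1 made up 9.56 to 14.7% of the reads of Oasl1 and Oasl2 together in the 6 libraries with Xist, and 0 to 4.67% in the 6 with Ddx3y, whatever the construct. In Cd31+ cells the 2 libraries with Xist had 4.81 and 4.93%, within the 0 to 8.70% of the 10 libraries with Ddx3y. This split was noticed in the data and is given as a description. In Cd146+ cells the libraries with Xist carried replicate numbers 4, 5 and 6, and those with Ddx3y carried 1, 2 and 3. The sex-linked difference and the replicate number therefore cannot be told apart, and the part of either in the split was not tested.

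**Figure D4:**
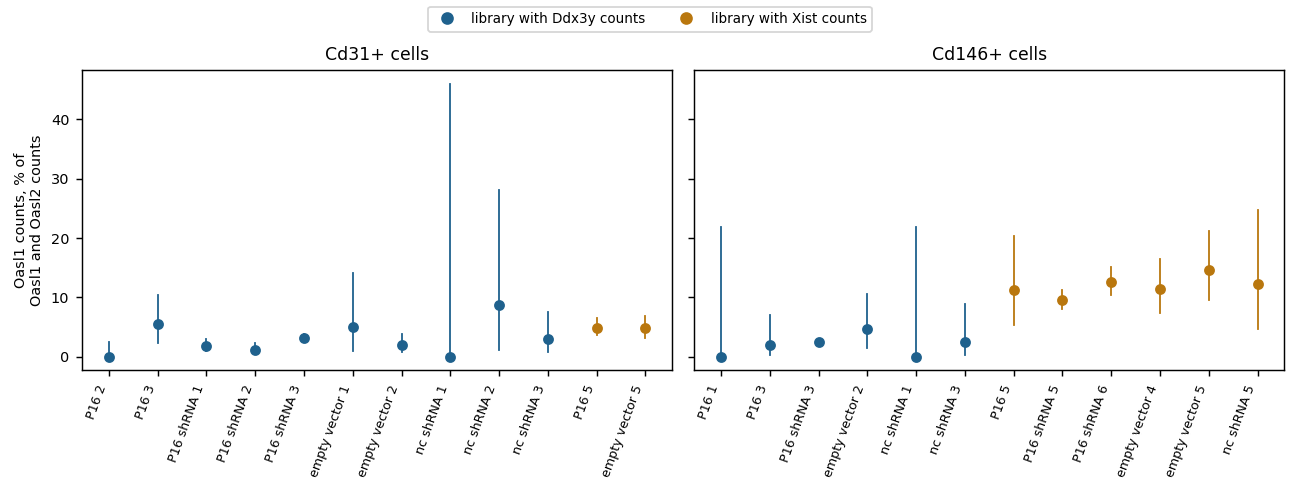
Reads of Oasl1 as a percentage of those of Oasl1 and Oasl2 in each library, with 95% exact binomial (Clopper-Pearson) intervals that cover counting error only, coloured by the sex-linked transcript the library held. The Cd146+ libraries with Xist lie from 9.56 to 14.7% and those with Ddx3y from 0 to 4.67%.

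Overexpression of P16Ink4a gave no member a change past the threshold. In Cd31+ cells the 7 members summed to 5.03, 27.7 and 39.5 CPM with empty vector and 11.4, 12.3 and 76.4 CPM with P16. The 4 members tested (Oas1a, Oas1b, Oas2 and Oasl2) had log2 fold changes of 0.33 to 0.48 with unadjusted p of 0.654 or more and adjusted p of 0.975 or more (edgeR). None of the 4 passed at an unadjusted p under 0.05, as did 1.45% of all genes in this direction, and DESeq2's Wald test likewise called 0. The groups overlapped for all 7 genes. The same-numbered pairs went opposite ways: with P16 the members stood at 0.215 (Oas1g) to 0.630 (Oas1b) of the empty vector level in replicate 2, and at 1.60 (Oas1b) to 3.27 (Oas3) times that level in replicate 5. The pairs also differed in Cdkn2a, which was 6.84-fold higher with P16 in replicate 2 and 1.72-fold in replicate 5.

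Oasl2 gives an example. In Cd31+ cells it was at 2.85, 17.6 and 23.7 CPM in empty vector replicates 1, 2 and 5 and at 7.71, 6.43 and 46.7 CPM in P16 replicates 2, 3 and 5. Replicate 5 was the highest in both groups, and these are the Cd31+ libraries that held Xist. Without P16 replicate 5 the log2 fold change of Oasl2 turned from 0.48 to -1.07, and the block over the 12 Cd31+ libraries gave -0.46 (edgeR, adjusted p = 0.866).

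In Cd146+ cells with P16 the members lay lower than with empty vector, at 1.67, 7.91 and 8.17 CPM in sum against 7.71, 14.5 and 16.2 CPM. The 4 members tested had log2 fold changes of -0.78 for Oas1b, -0.91 for Oasl2, -1.68 for Oas1a and -1.92 for Oas2. Their unadjusted p ran from 0.0984 to 0.223 and the adjusted p was 0.986 (edgeR), so 0 of 4 passed, against 1.99% of all genes that were lower at an unadjusted p under 0.05. DESeq2's Wald test called 0 as well. Oas2 was the member whose groups did not overlap, at 0.803, 0.824 and 1.18 CPM with empty vector and 0, 0.171 and 0.541 CPM with P16, a separation seen in this direction for 3.53% of genes. In the pair of replicate 5 all 7 members were at 0.347 to 0.845 of the empty vector level.

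The effect of P16 on the members, Cd146+ minus Cd31+, was -2.93 to -0.85 on the log2 scale. Its unadjusted p was 0.173 or more (edgeR), 0 of 7 members passed, and the background in this direction was 1.78%. Without Cd31+ P16 replicate 5 its median over the members moved from -2.08 to -0.28.

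The 2 control vectors were themselves set side by side, since both silencing and overexpression are read against one of them. The members were lower with nc shRNA than with empty vector, by log2 fold changes of -0.98 (Oas1b) to -2.66 (Oas1a) in Cd31+ and -0.92 (Oas1b) to -2.14 (Oas1a) in Cd146+ cells for the 4 tested. In sum the members had 5.59 ± 5.59 CPM with nc shRNA against 24.1 ± 17.5 CPM with empty vector in Cd31+ cells, and 4.46 ± 2.68 against 12.8 ± 4.48 CPM in Cd146+ cells (SD, n = 3 each). Without adjustment Oas1a in Cd31+ cells (edgeR, unadjusted p = 0.0221, background 1.73%) and Oasl2 in Cd146+ cells (unadjusted p = 0.0328, background 2.13%) passed. With it none did (adjusted p of 0.992 and 0.907 from edgeR). Oas1g in Cd31+ cells, and Oas2 and Oasl2 in Cd146+ cells, did not overlap between the control groups, against 2.83% and 3.66% of genes. A replicate block over the Cd31+ nc shRNA and empty vector libraries called Oasl2, Oas1a and Oas2 lower with nc shRNA (background 1.9%), but only numbers 1 and 2 are shared there, so 4 libraries decide it. The block over the 12 Cd31+ libraries called 0 of 7 after adjustment, and Oas1a alone without it (edgeR). In Cd31+ nc shRNA replicates 1, 2 and 3 Oas1a had 3, 6 and 15 reads and Oas2 3, 5 and 20. Empty vector replicates 1, 2 and 5 had 12, 51 and 129 reads of Oas1a, and 5, 67 and 80 of Oas2. Both passed the filter on low counts largely through the empty vector libraries, which favours finding them lower with nc shRNA. The Cd31+ calls of Oas1a and Oas2 are therefore descriptions. These control libraries also enter the comparisons with P16 shRNA and P16. With P16 shRNA the sums, 52.6 to 336 and 60.4 to 676 CPM, exceeded those of every empty vector library of the same population. Each single member did so in Cd146+ cells, and Oas1a, Oas1g and Oasl2 did in Cd31+ cells. There Oas1b, Oas2, Oas3 and Oasl1 overlapped. They had 3.858, 2.519, 0.3751 and 0.8038 CPM in P16 shRNA replicate 1. Empty vector replicate 5 had 4.292, 3.301, 1.279 and 1.197 CPM of them. The sum of Cd31+ P16 replicate 5, 76.35 CPM, also lay above those of P16 shRNA replicates 1 and 2 (61.73 and 52.61 CPM).

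Between the populations, with control vectors, the log2 difference Cd146+ minus Cd31+ lay between -1.03 (Oas2) and 0.34 (Oasl1), with unadjusted p of 0.294 or more (edgeR). No member passed, whereas 8.13% of all genes were lower in Cd146+ cells at an unadjusted p under 0.05. The family's level without a P16Ink4a construct was thus not distinguished between the populations at this spread.

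Of 4 genes that limit or degrade 2-5A, Abce1, which restrains the action of 2-5A, had means of 216 CPM with nc shRNA and 224 CPM with P16 shRNA in Cd31+ cells. Pde12, a phosphodiesterase that cleaves 2-5A, had 33.0 and 35.5 CPM there, and Akap7, a relative of such enzymes, 15.9 and 15.6 CPM. In Cd146+ cells Abce1 had 153 and 170 CPM, Pde12 32.1 and 31.4 CPM, and Akap7 11.2 and 12.3 CPM. Enpp1, a surface phosphodiesterase that can hydrolyse 2-5A, was the gene of this list that passed a test of silencing after adjustment. Its mean was 1.31 CPM with nc shRNA and 4.66 CPM with P16 shRNA in Cd31+ cells, a log2 fold change of 1.83 (adjusted p = 0.104, or 0.00143 with the block, from edgeR). In Cd146+ cells Enpp1 had 3.42 and 7.32 CPM and a log2 fold change of 1.10 (adjusted p = 0.503, or 0.0516 with the block). Of these 4 genes, 1 was thus higher and 0 lower at an adjusted p under 0.05 with the block in Cd31+ cells, and 0 in Cd146+ cells. Of all genes, 7.95% and 3.53% were higher in these fits. Without adjustment, 2 of the 4 were higher under the Cd146+ block (edgeR, p under 0.05). Enpp1 also varied outside silencing, with means of 1.04 CPM with empty vector and 2.30 CPM with P16 in Cd31+ cells. In Cd146+ cells its empty vector mean, 13.1 CPM (4.3 to 26.9 CPM), lay above its mean with P16 shRNA.

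The table lists further Oas1 copies, which were near or at 0. Oas1d, Oas1e, Oas1f and Oas1h had no read in any nc shRNA library and at most 9 in a P16 shRNA library. Oas1c was the exception, with means of 2.60 CPM with nc shRNA and 3.96 CPM with P16 shRNA in Cd31+ cells (log2 fold change 0.62, adjusted p = 0.541 from edgeR) and 2.16 and 6.46 CPM in Cd146+ cells (1.58, adjusted p = 0.382, or 0.0464 with the block).

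Other receptors and editors of double-stranded RNA form a list of 10 genes, of which 6 in each population rose with P16 shRNA in the block and none fell (adjusted p, edgeR), where 7.95% and 3.53% of all genes rose in Cd31+ and Cd146+ cells. Without the block, 6 were higher at an unadjusted p under 0.05 in each population (9.51% and 5.44% of all genes) and 0 passed after adjustment. In Cd31+ cells the 6 that rose were Ddx58 (RIG-I), Ifih1 (MDA5), Dhx58 (LGP2), Zbp1, Adar and Trim25, and in Cd146+ cells Eif2ak2 (PKR) stood in place of Trim25. Zbp1, a sensor of Z-form nucleic acid, had log2 fold changes of 5.20 and 9.13 with the block, Dhx58 2.97 and 4.25, and Ifih1 1.49 and 2.74. The list's median was 0.77 and 1.33, below the medians of 4.56 and 5.86 over the OAS members in the same fits. The control itself was low for part of this list. With nc shRNA against empty vector, 3 of 9 genes tested were lower and 0 higher in Cd146+ cells (edgeR, unadjusted p under 0.05, background 2.13%). In Cd31+ cells 0 of 9 were lower or higher, and after adjustment 0 passed in either population.

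In the list of 10 interferon signalling genes, 6 rose and 1 fell with P16 shRNA in Cd31+ cells with the block, and 4 rose and 0 fell in Cd146+ cells. Of all genes, 7.95% and 3.53% rose in these fits. Without the block 0 of the 10 passed after adjustment in either population (edgeR), and 5 were higher and 1 lower at an unadjusted p under 0.05 in each. Irf9, Irf7, Usp18 and Socs1 rose in both, Stat2 and Ifnar2 in Cd31+ cells, where Jak1 fell by 0.44 on the log2 scale. Irf7, the factor that Oasl1 holds back, gave 3.39 (adjusted p = 0.0253) and 4.82 (adjusted p = 0.0186 from edgeR). With nc shRNA against empty vector, 4 of the 10 signalling genes were lower and 0 higher in Cd146+ cells (edgeR, unadjusted p under 0.05, background 2.13%). In Cd31+ cells 1 was lower and 0 higher (background 1.73%), and after adjustment 0 passed in either population. The transcripts of the interferons themselves were not detectable in amounts that allow a test. Of 21 interferon genes listed, 7 had no read in any library, the highest count of any in a library was 8, and none passed the filter. Summed over these genes, Cd31+ cells had 2, 3 and 0 reads with nc shRNA and 1, 2 and 17 with P16 shRNA. Cd146+ cells had 3, 3 and 2 with nc shRNA and 11, 6 and 7 with P16 shRNA replicates 3, 5 and 6. Of the 11 reads in replicate 3, 8 were from Ifnb1, which had 0 and 1 reads in replicates 5 and 6. These sums are too small for a comparison.

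Across the 24 libraries the members varied together. Pearson's r between the log2 CPM of 2 members ran from 0.839 to 0.959 over the 21 pairs, with a median of 0.926. Among 13408 genes with a mean of at least 1 CPM, those most like the mean of the members were Irf7 (r = 0.971), Parp14 (0.970), Xaf1 (0.968), Ube2l6 (0.966) and Usp18 (0.965). These correlations are a description, since the libraries share groups and replicate numbers.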

How the data were processed

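The authors deposited one table for all libraries with read counts per gene and FPKM values, fragments scaled to transcript length and library size. Per the labels, poly(A) RNA was sequenced, and the submitters' processing notes name fastp and mm9, whereas the deposited coordinates are not those of GRCm38 either, so positions in the text come from GRCm38. The aligner, the counting tool and the annotation release are not given in the sources used here. Columns with the authors' fold changes and p-values were not used. All per-sample columns were mapped, leaving 0 unmapped.

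Counts were filtered with filterByExpr, scaled by TMM and tested in R 4.3.3 with edgeR 4.0.16 (quasi-likelihood, robust, two-sided, Benjamini-Hochberg over all genes tested, threshold 0.05) on the 6 libraries of 2 groups. Differences between populations used all 24. FPKM values were read only for levels between genes. Other settings were all genes with at least 1 count, DESeq2 1.42.0 (size factors or Wald test), a single fit of 24 libraries, the replicate block and each library left out. A term for the sex-linked transcripts was added after seeing the data. The procedure was tested on simulated data with known fold changes.

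The pairing was read from the replicate numbers in the labels and checked on deviations from the group means over genes. Libraries with the same number correlated at 0.321 or more in 13 Cd31+ pairs and 0.379 or more in 10 Cd146+ pairs, against medians of -0.16 and -0.08 for different numbers. Depth was 15409767 to 26470392 counts per library. A count of 0 was taken to allow 3 counts, and intervals cover counting error only.

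Members were named by symbol, other genes by lists of 2-5A turnover, Oas1 copies, RNA sensing, interferon signalling and interferons, and genes alike by the 5 highest correlations. The members and lists were chosen with earlier results of these data known. Some genes of these lists are not reported here and were left out of their counts.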

Additional observations from a re-analysis of the deposited data

How the results depend on the processing

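For silencing in Cd31+ cells, 0 members passed after adjustment, but 2 did with all genes with at least 1 count, 5 with DESeq2's Wald test, 7 with the replicate block over 12 libraries and 5 with the replicate block over 2 groups. In Cd146+ cells 0 passed, against 4 with the Wald test, 5 with 24 libraries and 5 with the replicate block over 12 libraries. There 7 passed without adjustment and 4 with the Wald test, which gave Oas1a, Oas1g and Oasl2 no p. Left-out libraries kept all 7, with medians of 4.21 to 6.80 for a value of 6.25. P16 against empty vector in Cd146+ cells gave 0 lower members without adjustment and 0 to 2 with a library left out, and a median of -1.30 that ranged from -2.83 to -1.09. The lower members with nc shRNA against empty vector in Cd31+ cells, 1 without adjustment, became 5 with all genes, 2 with the Wald test, 0 with 24 libraries, 4 with the replicate block over 2 groups, 0 with the sex-linked term and 0 to 4 with a library left out. After adjustment 0 became 3 with the replicate block over 2 groups. In Cd146+ cells 1 became 2 with all genes, 0 with 24 libraries, the replicate block over 12 libraries and the sex-linked term, and 0 to 2 with a library left out. The difference in silencing had a median of 1.13 (-0.83 to 2.81 with a library left out) and that in overexpression -2.08 (-3.22 to -0.28). Single members turned in sign for P16 against empty vector in Cd31+ cells, where no member passed. With the replicate block over 12 libraries Oas1a, Oas1b, Oas2, Oasl1 and Oasl2 had -0.36, -0.18, -0.51, -0.23 and -0.46. With that over 2 groups Oas1a, Oas2 and Oasl2 had -0.0892, -0.0277 and -0.042, and with the sex-linked term Oasl2 had -0.0058. With a library left out, Oas1a ranged from -1.25 to 1.29, Oas1b from -0.71 to 0.83, Oas2 from -0.74 to 0.80 and Oasl2 from -1.07 to 1.02, negative without P16 replicate 5 or empty vector replicate 1, and Oas1g from -0.33 to 0.39, positive without P16 replicate 2. The causes were not tested. The replicate block over 2 groups could not be fitted in Cd146+ cells with empty vector, which share number 5 alone. The differences in effect between the populations were also fitted with a replicate block within population, whose values are not given here. For the control vectors no block was run between the populations. Members with fewer than 10 reads in the controls are limited by depth.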
